A study of Mus musculus with 374 samples.

Results

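Stem and progenitor surface marker genes are described here in mouse blood cells: Cd34, Adgrg1, Cd48, Slamf1, Cd27, Procr and Cd93. The 7 genes were chosen by name, and 6 of them have a row among the 19829 mouse genes counted. Cd48 is not analysed here. Single cells were sorted into 1 plate from 1 female C57BL/6 mouse aged 10 to 13 weeks, with no treatment or altered allele named, and measured by CEL-seq2, which tags the 3' end of polyadenylated RNA with a unique molecular identifier (UMI), so that each UMI counts 1 captured molecule. From bone marrow came 95 progenitor/stem cells (Lin- Kit+ Sca1+, labelled LSK), 44 B lymphocytes (B220+ and low forward scatter), 96 granulocytes (Mac1+ Gr1+) and 96 erythroblasts (Ter119+ CD44+, mid to high forward scatter). The 43 T lymphocytes (CD3+ and low forward scatter) came from the thymus, so that tissue and cell type cannot be told apart for them. Each population is 1 sample, so no test across samples was possible. The 95% intervals given below cover counting error only.

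These genes code for proteins by which blood-forming cells are recognised and sorted. Stem cells of mouse marrow lie in the Lin- Kit+ Sca1+ gate together with multipotent progenitors. Within it, the SLAM family receptors CD150 (Slamf1) and CD48, the sialomucin CD34, the endothelial protein C receptor (Procr, also called EPCR) and CD27 separate long-term stem cells from progenitors. Adgrg1 codes for the adhesion G protein-coupled receptor GPR56. Cd93 codes for a C-type lectin transmembrane receptor known as the AA4.1 antigen of early B cells and progenitors. Several of these proteins also have roles in lymphocytes: CD27 is a co-stimulatory receptor of the tumour necrosis factor receptor superfamily, and CD150 is a self-ligand receptor of T and B cells.

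In GENCODE M21 (GRCm38) the members are protein-coding genes on 4 chromosomes. Cd34 lies at chr1:194938819-194961279, Slamf1 at chr1:171767127-171801184 and Cd48 at chr1:171682009-171705258, all on the plus strand. Procr lies at chr2:155751117-155755471 on the plus strand and Cd93 at chr2:148436640-148443563 on the minus strand. Cd27 lies at chr6:125232622-125237010 on the minus strand and Adgrg1 at chr8:94974751-95014217 on the plus strand. Cd27 lies wholly within Vamp1 on the opposite strand, and Cd34 overlaps the antisense gene Gm16897. Whether the counting used strand is not given in the sources used here, so reads of such pairs may not be told apart. Vamp1 held 15 UMIs over all wells and Gm16897 held 1.

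The sequence upstream of the gene start is shown for 2 members seen almost only in progenitor/stem cells (Cd34 and Procr) and for 2 shared with lymphocytes (Cd27 and Slamf1). RefSeq promoters of build GRCm38.p6 were found for 6 of the 7 members. Printed bases lie upstream of the gene start in both RefSeq and GENCODE M21, read 5' to 3' on the gene's strand. Capitals mark 3 short motifs, searched on both strands and not overlapping here. The motif searched for RUNX factors was TGTGGT. For factors of the ETS family it was AGGAAG. The remaining motif, a core of erythroid and stem cell zinc finger factors, was GATAA. The windows are chr1:194938571-194938818, chr2:155750967-155751116 and chr1:171766882-171767126 on the plus strand and chr6:125237028-125237277 on the minus strand.
Cd34: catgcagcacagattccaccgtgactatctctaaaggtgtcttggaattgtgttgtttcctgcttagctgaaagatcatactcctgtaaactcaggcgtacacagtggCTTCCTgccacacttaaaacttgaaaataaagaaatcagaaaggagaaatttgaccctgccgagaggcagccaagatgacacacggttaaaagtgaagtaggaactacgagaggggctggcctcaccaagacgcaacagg
Procr: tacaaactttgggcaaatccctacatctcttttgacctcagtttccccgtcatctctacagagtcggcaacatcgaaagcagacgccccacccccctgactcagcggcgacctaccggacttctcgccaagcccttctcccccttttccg
Cd27: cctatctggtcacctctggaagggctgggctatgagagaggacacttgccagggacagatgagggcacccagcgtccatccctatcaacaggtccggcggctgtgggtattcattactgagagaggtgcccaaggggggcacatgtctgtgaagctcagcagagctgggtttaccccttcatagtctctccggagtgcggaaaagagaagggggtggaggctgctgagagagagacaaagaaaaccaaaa
Slamf1: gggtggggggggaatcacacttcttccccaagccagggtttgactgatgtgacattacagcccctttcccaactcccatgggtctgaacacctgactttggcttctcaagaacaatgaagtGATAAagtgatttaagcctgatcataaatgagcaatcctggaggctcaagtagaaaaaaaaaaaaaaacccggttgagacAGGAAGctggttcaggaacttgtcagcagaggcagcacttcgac

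Over the full 250 upstream bases, Cd34 held 1 ETS match and Slamf1 held 1 ETS and 1 GATA match, while Cd27, Procr and both Adgrg1 promoters held none of the 3. Cd48 held 1 RUNX match. Of 32851 promoters of the same length, 29.5% held the ETS letters, 22.6% the GATA letters and 14% the RUNX letters. A match describes the letters only.

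The populations differed in depth. UMIs on mouse genes summed to 834812 in progenitor/stem cells, 135808 in B lymphocytes, 200396 in T lymphocytes, 403506 in granulocytes and 666728 in erythroblasts, and the median per well was 7959, 3028, 4347, 3880 and 6114. Levels are therefore given as CPM, the UMIs of a gene per 1000000 UMIs on mouse genes, from the summed counts. Shares of wells are given after each well was thinned to 2000 UMIs, which kept all 95 progenitor/stem wells and 33 B lymphocyte, 42 T lymphocyte, 86 granulocyte and 95 erythroblast wells. No cell barcode was shared by 2 of the 374 wells. The marker lists of the sorted populations were highest in the matching population, and the progenitor list (Kit, Flt3, Meis1 and Hlf) held 1604 UMIs in progenitor/stem cells against 6 to 42 elsewhere. In 7 wells the profile was nearest to another population, among them 1 progenitor/stem well (K5) and B lymphocyte well A8. Leaving out these wells moved no ratio of a member outside its interval.

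Cd34 and Adgrg1 marked the progenitor/stem wells, Procr was counted almost only there at a low level, Cd27 was as high in T lymphocytes, Cd93 was as high in B lymphocytes, and Slamf1 was sparse everywhere. Of the 5 members with at least 20 UMIs in a pair of populations, a CPM at least 2-fold higher in progenitor/stem cells was found for 3 against B lymphocytes, where 19.3% of all genes tested were so called, and for 4 against T lymphocytes (19.4%). All 5 were higher than in granulocytes (48.2%) and in erythroblasts (49.4%). None of the 5 was 2-fold lower, where 7.51% of genes were lower against B lymphocytes, 9.17% against T lymphocytes, 11.7% against granulocytes and 12.1% against erythroblasts. The median log2 ratio over all genes tested was 0.32, 0.26, 0.95 and 0.98 in that order, so that ratios against granulocytes and erythroblasts start from a raised middle. With TMM factors it was 0.21, 0.24, 0.18 and 0.12, and the share of called genes that were higher in progenitor/stem cells was 64% against B lymphocytes in place of 72%, 65.7% against T lymphocytes in place of 67.9%, 55.5% against granulocytes in place of 80.5% and 58.6% against erythroblasts in place of 80.4%. DESeq2 size factors gave 45.6%, 54%, 47% and 55.1%. The members called higher with TMM numbered 3, 4, 5 and 5 as with CPM. Of all genes tested, TMM called 15.7%, 18.2%, 26.3% and 32.1% higher in the same order. Slamf1 did not reach 20 UMIs in any pair, and its level is given below without a call. The filter thus left out a member with log2 ratios of -1.45 over B and -1.89 over T lymphocytes. Outside progenitor/stem cells, 20 UMIs were reached only by Adgrg1 in erythroblasts (41), Cd27 in T lymphocytes (56) and Cd93 in B lymphocytes (69). The other pairs of the 5 passed through their progenitor/stem UMIs, so these counts are in part set by the filter.

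**Figure D1:**
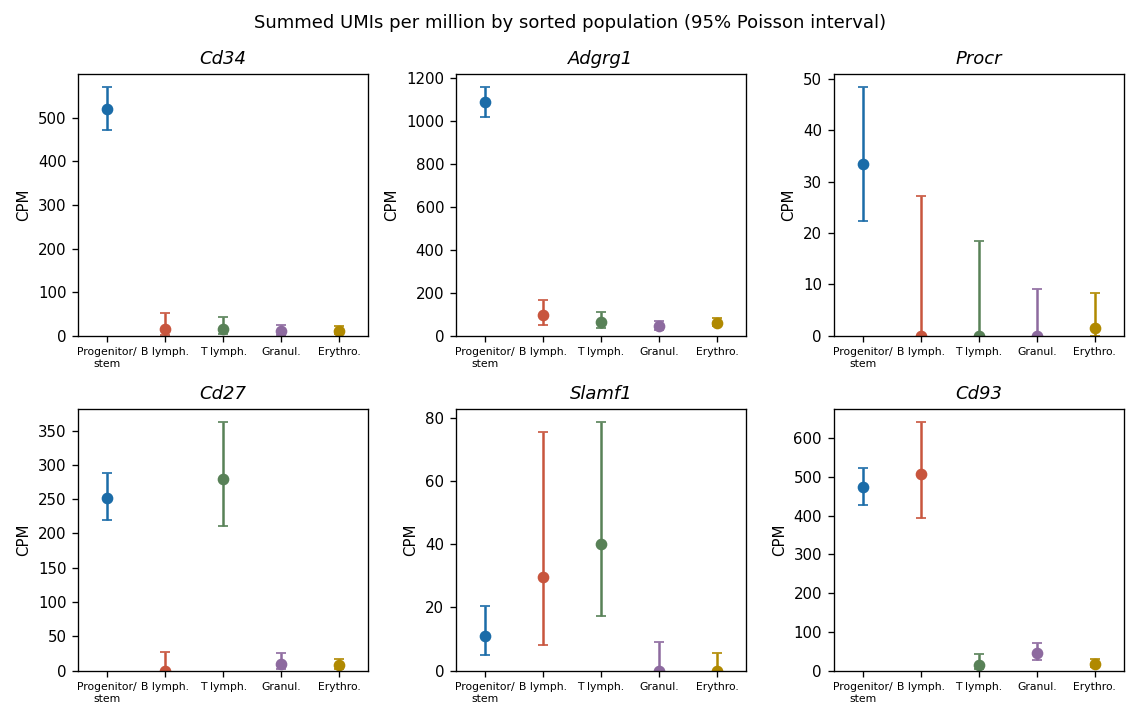
CPM of the 6 members with counts (vertical axis, linear from 0, a different range in each panel) in the 5 sorted populations, with 95% exact Poisson intervals of the summed UMIs. Cd34, Adgrg1 and Procr stand highest in progenitor/stem cells, Cd27 stands at a like height in T lymphocytes, Cd93 in B lymphocytes, and the intervals of Slamf1 are wide.

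Cd34 was counted 434 times in progenitor/stem cells, 2 times in B lymphocytes, 3 in T lymphocytes, 4 in granulocytes and 7 in erythroblasts. This is 520 CPM (472 to 571) in progenitor/stem cells against 14.7, 15, 9.91 and 10.5 CPM. Nothing among the other populations came near, and no neighbours in the order below progenitor/stem cells differed beyond counting error. The ratios were 35.3-fold over B lymphocytes (log2 5.14, 3.28 to 8.19), 34.7-fold over T lymphocytes (log2 5.12, 3.56 to 7.40), 52.4-fold over granulocytes (log2 5.71, 4.35 to 7.60) and 49.5-fold over erythroblasts (log2 5.63, 4.57 to 6.95). A UMI was found in 90 of 95 progenitor/stem wells (94.7%), and in 54 of 95 (56.8%, 46.3 to 67) after thinning. In erythroblasts, a lineage past the CD34 stage, 7 of 96 wells (7.29%) had a UMI and 1 of 95 after thinning (1.05%), with a median depth of 6114 UMIs per well against 7959. Every one of the 16 wells outside progenitor/stem cells with Cd34 held exactly 1 UMI.

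Adgrg1 was found in all 95 progenitor/stem wells. Its 906 UMIs there gave 1085 CPM (1016 to 1158), against 95.7 in B lymphocytes (13 UMIs), 64.9 in T lymphocytes (13), 44.6 in granulocytes (18) and 61.5 in erythroblasts (41). The gap was 11.3-fold to B lymphocytes (log2 3.50, 2.72 to 4.42), 16.7-fold to T lymphocytes (log2 4.06, 3.28 to 4.98), 24.3-fold to granulocytes (log2 4.60, 3.94 to 5.37) and 17.6-fold to erythroblasts (log2 4.14, 3.69 to 4.63). The 4 other populations followed in the order B lymphocytes, T lymphocytes, erythroblasts and granulocytes, and no neighbours in it differed beyond counting error. After thinning, 83 of 95 progenitor/stem wells held a UMI (87.4%, 79 to 93.3), against 9.09% of B lymphocyte, 19% of T lymphocyte, 12.8% of granulocyte and 11.6% of erythroblast wells. Scaling moved these ratios: scran size factors gave log2 2.21 over B lymphocytes and 2.98 over erythroblasts, and the mean over wells gave 2.58 over B lymphocytes. All stayed above 2-fold.

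Procr, the receptor that binds protein C, was the sparsest gene with a progenitor/stem pattern. It had 28 UMIs in progenitor/stem cells (33.5 CPM, 22.3 to 48.5), 1 in erythroblasts and 0 in B lymphocytes, T lymphocytes and granulocytes. Against a floor of 3 UMIs over the population, the CPM was at least 1.52-fold higher than in B lymphocytes and 2.24-fold higher than in T lymphocytes. It was at least 4.51-fold higher than in granulocytes. These bounds leave out the counting error of the 28 UMIs. With it, the 95% lower limits of the log2 ratios were 0.21, 0.77 and 1.78, so those over B and T lymphocytes lay below 2-fold. The small total of B lymphocytes sets the first bound, since 3 UMIs are 22.1 CPM there. Over erythroblasts the ratio was 22.4-fold (log2 4.48, 1.89 to 9.84), resting on 1 UMI. Procr was seen in 22 of 95 progenitor/stem wells (23.2%, 15.1 to 32.9), in 17 of them by 1 UMI, and in 6 of 95 after thinning (6.32%). Without thinning, 0 of 96 granulocyte wells had a Procr UMI, which allows a share of up to 3.12% by the limit of 3 wells (exact binomial upper bound 3.77%). In B lymphocytes 0 of 44 wells allows up to 6.82% (exact 8.04%). After thinning, the exact upper bounds were 4.2% in granulocytes (0 of 86), 10.6% in B lymphocytes (0 of 33) and 8.41% in T lymphocytes (0 of 42). Those of B and T lymphocytes lay above the 6.32% of progenitor/stem cells.

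Cd27 was shared with thymic T lymphocytes. The counts were 210 UMIs in progenitor/stem cells and 56 in T lymphocytes, and the CPM was 252 (219 to 288) and 279 (211 to 363). The log2 ratio of progenitor/stem over T lymphocytes was -0.15 (-0.58 to 0.30), an interval that holds no difference and leaves out one of 2-fold in either direction. The share of wells was alike as well, with 43 of 95 (45.3%, 35 to 55.8) and 17 of 42 (40.5%, 25.6 to 56.7) after thinning. Granulocytes had 4 UMIs (9.91 CPM), erythroblasts 5 (7.5 CPM) and B lymphocytes 0. The CPM in progenitor/stem cells was 25.4-fold that of granulocytes (log2 4.67, 3.29 to 6.55) and 33.5-fold that of erythroblasts (log2 5.07, 3.82 to 6.71). Against the floor of 3 UMIs it was at least 11.4-fold higher than in B lymphocytes, where the 95% lower limit of the log2 ratio was 3.20. Without thinning, 0 of 44 B lymphocyte wells had a UMI, a share of up to 6.82% by the limit of 3 wells (exact 8.04%). After thinning, 0 of 33 allowed up to 10.6% (exact). Among T lymphocyte wells split at the median CD3 fluorescence, Cd27 stood at 275 CPM in the 21 CD3-high and 284 CPM in the 22 CD3-low wells (log2 -0.04, -0.86 to 0.76).

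Cd93 was shared with marrow B lymphocytes. It had 395 UMIs in progenitor/stem cells (473 CPM, 428 to 522) and 69 in B lymphocytes (508 CPM, 395 to 643), a log2 ratio of -0.10 (-0.47 to 0.29). A UMI was found in 58 of 95 progenitor/stem wells (61.1%) and 21 of 33 B lymphocyte wells (63.6%, 45.1 to 79.6) after thinning. Granulocytes came next with 18 UMIs (44.6 CPM, 26.4 to 70.5), which was above erythroblasts with 11 (16.5 CPM) by a log2 ratio of 1.44 (0.27 to 2.66) on CPM. With scran size factors the levels were closer, at 47 and 33 CPM. T lymphocytes had 3 UMIs (15 CPM). The level in progenitor/stem cells was 31.6-fold that of T lymphocytes (log2 4.98, 3.42 to 7.27), 10.6-fold that of granulocytes (log2 3.41, 2.73 to 4.18) and 28.7-fold that of erythroblasts (log2 4.84, 3.99 to 5.86). TMM and DESeq2 scaling gave log2 2.64 and 2.48 over granulocytes.

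Genes of B cell stages were looked for in the B lymphocyte wells with Cd93. Of the 29 B lymphocyte wells with a Cd93 UMI, 20 had Rag1, which cuts antigen receptor genes, against 24 of all 44 wells. Vpreb3, a partner of the B cell receptor chains in their assembly, was found in 27 of these 29 and in 33 of 44. Ighd, the IgD heavy chain of mature naive B cells, was found in 15 of 29 and 24 of 44, and Ms4a1 (CD20) in 9 of 29 and 17 of 44. Wells with more UMIs more often hold any gene. After thinning, 11 of the 21 wells with Cd93 held Rag1 (52.4%) against 14 of 33 (42.4%), and 18 of 21 held Vpreb3 (85.7%) against 25 of 33 (75.8%). Ighd was held by 7 of 21 (33.3%) against 11 of 33 (33.3%), and Ms4a1 by 5 of 21 (23.8%) against 11 of 33 (33.3%). Of the other early genes, Rag2 was found in 4 of 44 B lymphocyte wells and Vpreb1 in 2. Cr2, also of the B cell stage list, was found in 8 of 44. Of the 8 B cell stage genes, 3 passed the 20-UMI filter against progenitor/stem cells (Rag1, Vpreb3 and Ighd). All 3 were lower in progenitor/stem cells, beside 7.51% of all genes. They had 5, 9 and 12 UMIs in progenitor/stem cells and 89, 201 and 80 in B lymphocytes. These genes passed through their B lymphocyte UMIs, so the count was largely set by the filter and the list.

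Slamf1 was counted 21 times in all. Progenitor/stem cells had 9 UMIs (10.8 CPM, 4.93 to 20.5), B lymphocytes 4 (29.5 CPM, 8.03 to 75.4), T lymphocytes 8 (39.9 CPM, 17.2 to 78.7) and granulocytes and erythroblasts 0. The order put T lymphocytes first, and neither they and B lymphocytes nor B lymphocytes and progenitor/stem cells differed beyond counting error. Progenitor/stem cells were lower than T lymphocytes by a log2 ratio of -1.89 (-3.43 to -0.31). Well counts were 6 of 95 in progenitor/stem cells (6.32%) and 7 of 43 in T lymphocytes (16.3%), and after thinning 3 of 95 (3.16%) and 3 of 42 (7.14%). The thinned shares rest on 3 wells each, and their intervals (0.656 to 8.95% and 1.5 to 19.5%) overlapped. Without thinning, Slamf1 was seen in 0 of 96 granulocyte wells, which allows a share of up to 3.12% by the limit of 3 wells (exact 3.77%). After thinning, 0 of 86 allowed up to 4.2% (exact), above the 3.16% of progenitor/stem cells.

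**Figure D2:**
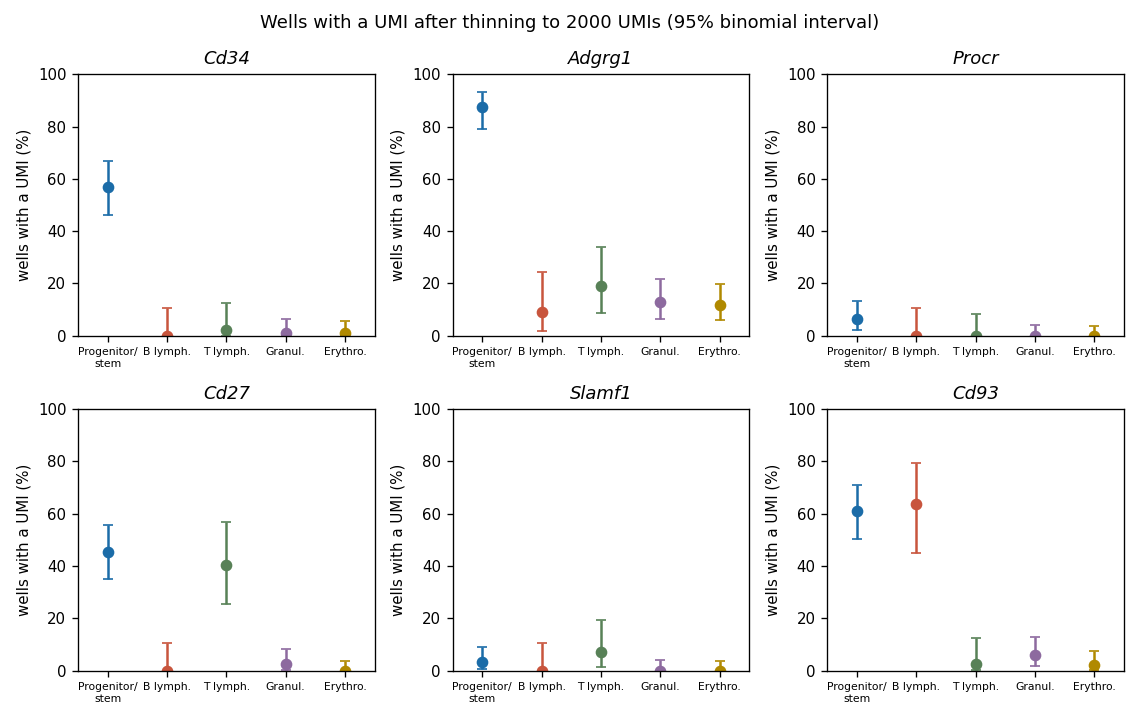
Percent of wells with at least 1 UMI of each member (vertical axis, 0 to 100) in the 5 populations after each well was thinned to 2000 UMIs, with 95% exact binomial intervals. Cd34 and Adgrg1 stand highest in progenitor/stem cells, Cd27 is high there and in T lymphocytes, Cd93 is high there and in B lymphocytes, and Procr and Slamf1 stay below 10% in every population.

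Low counts of members outside their main populations were set against those of 4 other progenitor genes, since free RNA gives UMIs in wells of cells that do not make a gene. The 4 progenitor markers summed (Kit, Flt3, Meis1 and Hlf) reached, per well and as a percent of progenitor/stem cells, 0.808% (0.296 to 1.76) in B lymphocytes, 4.13% (2.78 to 5.92) in T lymphocytes and 2.59% (1.86 to 3.52) in both granulocytes and erythroblasts. Cd34 stood at 0.995%, 1.53%, 0.912% and 1.6% in the same order, and its intervals overlapped those of the markers in all 4 populations. Adgrg1 stood at 3.1% (1.64 to 5.32) in B lymphocytes and 4.48% (3.19 to 6.12) in erythroblasts, where 1 well held 5 UMIs, and at 3.17% and 1.97% in T lymphocytes and granulocytes. Cd93 in granulocytes stood at 4.51% (2.64 to 7.22). Cd27 in T lymphocytes (58.9%, 43.1 to 79.5) and Cd93 in B lymphocytes (37.7%, 28.8 to 48.8) lay far above the markers. The part of free RNA in the low values was not tested further.

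**Figure D3:**
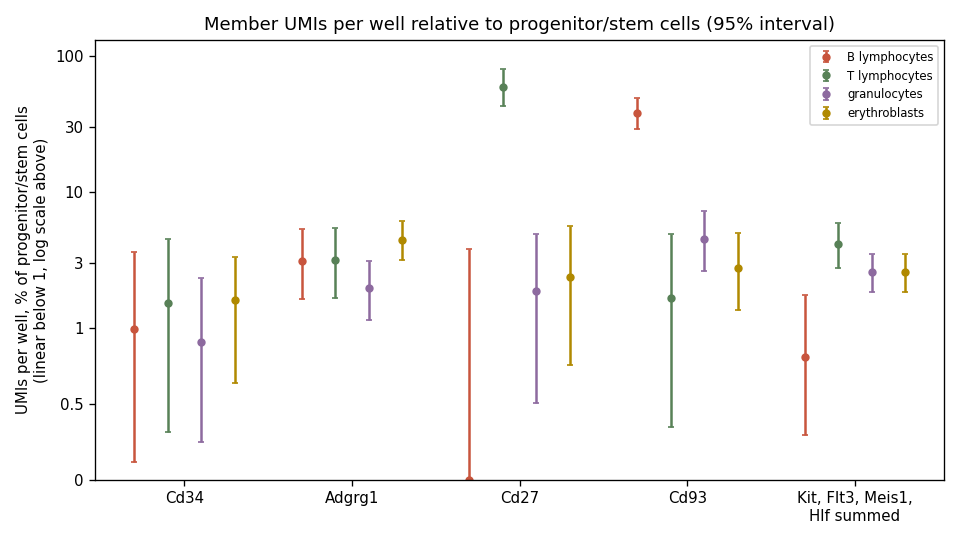
UMIs per well as a percent of those in progenitor/stem cells (vertical axis, linear below 1 and log scale above) for 4 members and for the sum of Kit, Flt3, Meis1 and Hlf in the other 4 populations, with 95% intervals. Cd27 in T lymphocytes at 58.9% and Cd93 in B lymphocytes at 37.7% stand apart, and all other points lie below 5%.

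Among progenitor/stem wells the members differed in their counts per well. Adgrg1 ranged from 1 to 24 UMIs with a median of 9, Cd34 from 0 to 16 with a median of 4, Cd93 from 0 to 21 with a median of 3 and Cd27 from 0 to 9 with a median of 2. Procr reached at most 3 UMIs and Slamf1 at most 4, both with a median of 0. After thinning to equal depth, the variance over the mean was 1.39 for Adgrg1, 1.15 for Cd34, 1.04 for Cd93 and 0.956 for Cd27, where a value of 1 is that of random counting and the median over 3281 genes with at least 50 UMIs was 1.02. It was 1.47 for Slamf1 and 1.22 for Procr, on few counts. Thinning itself brings this value closer to 1, and no interval was computed, so the members are not ranked by it. The mean per thinned well differed as well, at 2.12 UMIs for Adgrg1, 0.937 for Cd34 and 0.0421 for Slamf1.

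**Figure D4:**
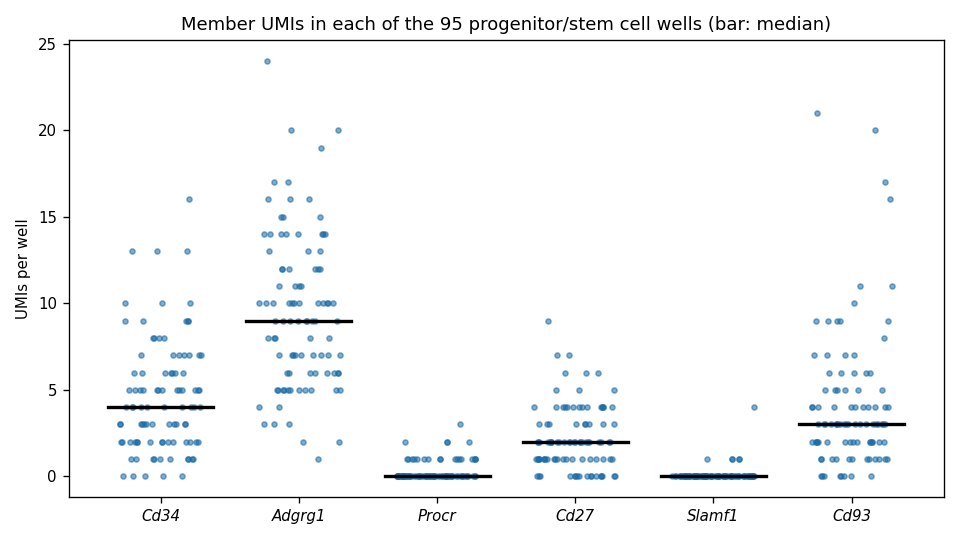
UMIs of each member (vertical axis, linear) in each of the 95 progenitor/stem cell wells (points, spread sideways for sight), with the median as a bar. Adgrg1 has a median of 9 and no well at 0, and Procr and Slamf1 lie at 0 in most wells.

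Most progenitor/stem wells held several members. Of the 6 with counts, 61 of 95 wells held 4, 17 held 5, 15 held 3 and 2 held 2. Cd34 and Adgrg1 were found together in 90 of 95 wells, against 1 of 44 B lymphocyte, 1 of 43 T lymphocyte, 2 of 96 granulocyte and 2 of 96 erythroblast wells. At 2000 UMIs per well, 49 wells held both, 5 only Cd34, 34 only Adgrg1 and 7 neither. Without thinning, Cd93 was found in 82 of the 90 wells with Cd34 (91.1%) and in 72 of the 78 with Cd27 (92.3%), against 87 of all 95 (91.6%). At 2000 UMIs per well it was found in 26 of the 54 wells with Cd34 (48.1%), against 58 of all 95 (61.1%). Of the 43 thinned wells with Cd27, 28 held Cd93 (65.1%). Slamf1 and Procr, both of which are used to enrich stem cells, were found together in no well, with 6 and 22 wells of each. At such low counts a missing UMI does not show a missing transcript.

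Slamf1 was found in 6 progenitor/stem wells. Well L13 held 4 UMIs, and wells K17, L14, M4, N19 and N20 held 1 each. All 6 also had Kit, Cd93 and Adgrg1, which were found in 93, 87 and 95 of all 95 wells. Flt3, the receptor of lymphoid-primed progenitors, was found in 2 of the 6 (1 UMI each) against 75 of 95. Ly6a, which codes for Sca-1, was found in none of the 6 against 41 of 95. Cd34 was found in 4 of the 6 against 90 of 95, Cd27 in 3 against 78, and Itga2b in 4 against 31. With 6 wells these shares are a description only. The 6 wells held 4428 to 12252 UMIs, against a median of 7959 over progenitor/stem wells.

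The plate rows of progenitor/stem cells, K to N with 23 or 24 wells each, gave like levels for the abundant members. Adgrg1 ranged from 1009 to 1137 CPM, Cd34 from 454 to 588, Cd27 from 220 to 291 and Cd93 from 421 to 526. Procr ranged from 9 CPM in row M to 57.4 in row N on 2 and 12 UMIs. Slamf1 ranged from 4.5 to 24.5 CPM, and 5 of its 9 UMIs lay in row L.

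The index sort recorded each cell's fluorescence, and progenitor/stem wells were split at the median of c-Kit, Sca-1, CD44 and forward scatter area (FSC-A). This asks how the members go with the sort proteins inside the gate. The 6 members and 4 measures gave 24 ratios, of which some are given here. By FSC-A the ratios of Cd34, Adgrg1, Cd27 and Cd93 ran from 0.00 to 0.24 on the log2 scale, and their intervals held 0. The wells come from 1 mouse, and the differences are descriptions of these wells.

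CD44, an adhesion receptor for hyaluronan, gave the widest contrasts of Cd34, Adgrg1 and Cd93 among the measures. Cd93 stood at 559 CPM in the 47 CD44-high and 357 CPM in the 48 CD44-low wells (log2 0.64, 0.33 to 0.96), and Cd34 at 563 and 462 CPM (log2 0.29, 0.00 to 0.58). Adgrg1 went the other way, with 895 CPM in CD44-high and 1343 CPM in CD44-low wells (log2 -0.59, -0.78 to -0.39). Slamf1 had 0 UMIs in the 47 CD44-high wells, a share of up to 6.38% by the limit of 3 wells (exact 7.55%), and 9 UMIs in 6 of the 48 CD44-low wells. The CD44 fluorescence of these 6 ran from 4269 to 6495 units, the highest being the median well itself. For the range of all genes, 5% of the 3281 genes with at least 50 UMIs had a log2 ratio below -0.67 and 5% above 0.80, so that Adgrg1 and Cd93 lay inside that range.

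Depth moved with CD44. The median was 9021 UMIs in CD44-high and 6504 in CD44-low wells, and the Spearman correlation of CD44 with UMIs per well was 0.54 over 95 wells. Cd93 kept its direction within the deeper wells (log2 0.54, 0.15 to 0.94) and within the shallower wells (log2 0.63, 0.07 to 1.20). Cd34 had intervals that held 0 within the deeper (log2 0.29, -0.10 to 0.68) and the shallower wells (log2 0.41, -0.06 to 0.87). Adgrg1 had a log2 ratio of -0.22 (-0.48 to 0.05) within the deeper wells and was -0.85 (-1.17 to -0.53) within the shallower. In UMIs per well it was close in both, at 9.13 in CD44-high and 9.94 in CD44-low wells, while Cd93 was 5.7 and 2.65. The size of the Adgrg1 contrast by CD44 depended on the depth of the wells and on the scale, and Cd93 was higher in CD44-high wells on each scale used.

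By c-Kit, the receptor of stem cell factor, Adgrg1 was 1193 CPM in c-Kit-high and 979 CPM in c-Kit-low wells (log2 0.29, 0.09 to 0.48) and Cd93 400 and 545 CPM (log2 -0.45, -0.74 to -0.15). The transcript Kit itself was 783 and 571 CPM (log2 0.46, 0.21 to 0.70), and Flt3 was 263 and 614 CPM (log2 -1.23, -1.56 to -0.90). By Sca-1, Cd93 was 551 CPM in high and 404 CPM in low wells (log2 0.45, 0.16 to 0.74), but the share of wells with Cd93 was 89.4% and 93.8%, the top over the bottom 31 wells gave log2 0.19, and the correlation of Cd93 with Sca-1 fluorescence over the 95 wells was near 0 (Pearson -0.03, Spearman 0.05). Ly6a, which codes for Sca-1, was 88.9 and 70.3 CPM (log2 0.34, -0.40 to 1.08). Median depths were alike in these splits, at 8223 and 7890 UMIs by c-Kit and 7697 and 8182 by Sca-1. These ratios lay inside the range that leaves out the lowest and highest 5% of genes, -0.62 to 0.71 by c-Kit and -0.66 to 0.62 by Sca-1, except that of Flt3. The intervals of Cd27 and Procr held 0 in all 4 splits, and those of Procr were wide.

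**Figure D5:**
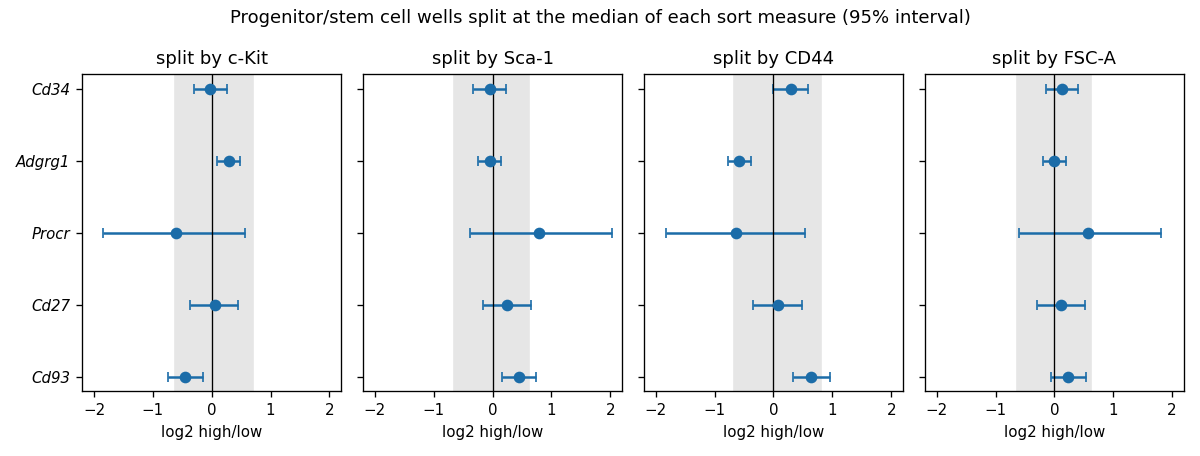
Log2 ratio of CPM (horizontal axis) of 5 members in the wells above over the wells at or below the median of c-Kit, Sca-1, CD44 and FSC-A among 95 progenitor/stem wells, with 95% intervals. Grey leaves out the lowest 5% and the highest 5% of genes with at least 50 UMIs. Adgrg1 and Cd93 lie on opposite sides of 0 by c-Kit and by CD44.

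Across the 95 progenitor/stem wells, Adgrg1 and Cd93 levels went in opposite directions to a small degree, with Pearson -0.28 on log2(CPM + 100) and Spearman -0.30 on CPM. Cd93 went with Flt3 (Pearson 0.34, Spearman 0.42). Adgrg1 went with Kit (Pearson 0.31, Spearman 0.32) and against UMIs per well (Pearson -0.39, Spearman -0.42). Cd34 had no such relation to Adgrg1 (Pearson 0.03, Spearman 0.02) or Cd93 (Pearson -0.03, Spearman 0.04). The wells share 1 mouse and 1 plate, and weak values in sparse counts are no finding.

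Other genes of the members' families and pathways were set beside them. Of 13 other stem and progenitor surface genes, 10 passed the filter against B lymphocytes, of which 7 were at least 2-fold higher in progenitor/stem cells and 1 lower. Their median log2 ratio was 1.69 against 0.32 over all genes, of which 19.3% were higher and 7.51% lower. Against T lymphocytes 6 of 10 were higher and 2 lower (median 1.52, all genes 19.4% higher and 9.17% lower). Against granulocytes 5 of 9 were higher and 2 lower (median 3.09, all genes 48.2% higher and 11.7% lower). Against erythroblasts 9 of 9 were higher (median 4.14, all genes 49.4% higher). Kit stood at 677 CPM in progenitor/stem cells and 22.1 to 39.9 elsewhere, and Flt3 at 440 and 7.36 to 39.9. Ly6a, at 79.1 CPM in progenitor/stem cells, was lower than in granulocytes at 171 CPM, and Thy1, a T cell and stem cell glycoprotein, was highest in T lymphocytes at 674 CPM.

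Few genes of the SLAM family list of 10 were counted often. It had 3 genes passing the filter against each lymphocyte population, of which Cd2 and Ly9 passed the 2-fold rule as lower in progenitor/stem cells in both comparisons (median log2 -1.34 against B and -1.14 against T lymphocytes, where 7.51% and 9.17% of all genes were lower). The intervals of Ly9 held 0, at -2.68 to 0.17 and -2.39 to 0.21. Of 2 that passed against granulocytes 1 was lower (11.7% of all genes), and the 1 that passed against erythroblasts was higher (49.4% of all genes). Cd84 stood at 478 CPM in granulocytes, 264 in T lymphocytes, 165 in progenitor/stem cells, 29.5 in B lymphocytes and 9 in erythroblasts. Cd2, an adhesion receptor that binds CD48 in the mouse, stood at 609 CPM in T lymphocytes and 13.2 in progenitor/stem cells.

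Among 7 other receptors of the Adgr class, 2 of 4 that passed were higher in progenitor/stem cells than in each lymphocyte population (19.3% and 19.4% of all genes), 3 of 4 than in granulocytes and 4 of 4 than in erythroblasts, where 48.2% and 49.4% of all genes were higher. Adgrl4 stood at 743 CPM in progenitor/stem cells and 19.5 to 64.9 elsewhere, and Adgrg3 at 283 CPM against 0 to 109. Adgre5 (CD97) was lower in progenitor/stem cells (28.7 CPM) than in granulocytes (263), B lymphocytes (206) and T lymphocytes (89.8). Of 5 other sialomucins, 3 passed the filter against B lymphocytes and 0 of these reached 2-fold in either direction (19.3% of all genes higher, 7.51% lower). In progenitor/stem cells 2 of 4 were lower than in T lymphocytes (9.17% of all genes). Against granulocytes 1 of 4 was higher (48.2% of all genes) and 1 lower (11.7%). Against erythroblasts 4 of 4 were higher, beside 49.4% of all genes. Cd164 stood at 164 CPM in progenitor/stem cells and 67.5 to 245 elsewhere. Only 2 of the 5 genes of the CD27 pathway list and 2 of the 4 of the protein C list have a row here. Siva1, a partner of the CD27 cytoplasmic tail, was 43.1 CPM in progenitor/stem cells, 9.98 in T lymphocytes and 90 in erythroblasts, and F2r, the thrombin receptor PAR1, was 38.3 CPM in progenitor/stem cells and 7.36 to 15 elsewhere. Of the CD93 family list, 1 of 3 genes has a row (Thbd, 7 UMIs in all).

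CD34, EPCR and CD93 are carried by endothelial cells too. Of 5 endothelial markers 4 have a row. Cdh5, the cadherin that defines that cell type, had 1 UMI in B lymphocytes and 0 in each other population. Its 0 in progenitor/stem cells therefore tells little. The 4 markers summed to 91 UMIs (109 CPM) in progenitor/stem cells, 28 UMIs (206 CPM) in B lymphocytes, 27 UMIs (135 CPM) in T lymphocytes, 2 UMIs in granulocytes and 4 in erythroblasts. Pecam1 made up 55 of these UMIs in progenitor/stem cells, 27 in B and 27 in T lymphocytes. Emcn and Tek, with 24 and 12 UMIs in progenitor/stem cells, had at most 2 UMIs in any other population. The part of endothelial RNA in the members' levels was not tested.

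The 3 genes with the pattern most like each member over the 5 populations were found among the 6312 or 6313 genes with at least 50 UMIs by the smallest distance of log2(CPM + 10), a description over 5 points. Cd34 was nearest to Ctla2a (distance 1.05), Gm19590 (1.06) and Flt3 (1.35). Adgrg1 was nearest to Gm8292 (1.35), Nedd4 (1.73) and Cbfa2t3 (1.73), and Procr to Gm37818 (0.84), Gm16758 (0.90) and Pgr (1.04). Cd27 was nearest to Rnf138 (1.97), Ramp1 (2.04) and Lgals3bp (2.12), none of them as close as those of Cd34. Cd93 was nearest to Mef2c (1.81), Wdfy4 (1.88) and Tcf4 (2.11), transcription factors apart from Wdfy4, and all 3 were counted in both progenitor/stem cells and B lymphocytes (158 to 394 and 155 to 383 CPM). Slamf1, with its few counts, was nearest to Panx1 (1.49), Trmt10c (1.52) and Usp36 (1.59).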

How the data were processed

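Single cells of 5 sorted populations of 1 mouse were measured on 1 plate by an adapted CEL-seq2 protocol. The authors deposited UMI counts per gene and well, whole numbers that are not normalized, made with *scPipe*, which aligns reads, assigns them to exons, demultiplexes cell barcodes and collapses UMIs. Neither build nor annotation nor strand setting is stated in any source used. The labels describe read 1 in 2 contradictory ways, which the deposited counts do not settle. A total of 9 columns matching no sample were not used. ERCC spike-in RNA, 6.76% of UMIs, stayed out of the totals. Coordinates and symbols came from GENCODE M21 (GRCm38), a choice made here, and 74 gene IDs had no symbol.

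UMIs were summed over the wells of a population and divided by the UMIs on mouse genes. Intervals were 95% exact Poisson for levels, exact binomial (Clopper-Pearson) for shares and exact conditional binomial for ratios. A gene was called at a 2-fold ratio where the pair of populations held at least 20 UMIs, with sums under 3 UMIs set to 3. Against a population at 0 the floor of 3 UMIs gave a bound, which leaves out the counting error of the other population. Wells were thinned to 2000 UMIs by drawing without replacement, and shallower wells were left out. No model was fitted and no p-value computed, since each population is 1 sample. No doublet caller was run, as each well was sorted as 1 cell. On sums simulated with counting error alone, the model behind these intervals, 96.3 to 96.9% of ratio intervals held the true ratio. Variation between wells was not simulated, so this checks the computation and not the width needed for these cells. Alternatives used scran 1.30.0, edgeR 4.0.16 (TMM) and DESeq2 1.42.0 size factors in R 4.3.3; other values came from Python 3.11.15 with scipy 1.17.1.

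The named genes are all 7 members, the 3 nearest genes of each by distance over the populations, and list genes given as counts with up to 6 named by total UMIs. The members and lists were chosen with earlier results of these data known. Genes paired with members within wells, the plate row sums, the correlations over wells, the comparison with the 4 progenitor markers and the 3 promoter motifs were chosen after the sums were seen. Some genes of these lists are not reported here, and the list counts were made without them.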

Additional observations from a re-analysis of the deposited data

How the results depend on the processing

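Of 519 alternative values, 442 stayed within the interval (or within 1.5 times the count) of the value reported, 76 moved outside it and 1 reversed. A value was called reversed only where the main log2 ratio was at least 1 in size and its sign changed. Smaller ratios that changed sign, as some below did, were counted as moved or as within the interval. No member ratio over another population that was at least 2-fold in either direction changed sign under any of the 8 alternatives. Scran size factors gave log2 ratios of 2.21 (Adgrg1 over B lymphocytes), 2.98 and 3.68 (Adgrg1 over erythroblasts and granulocytes), 4.20 (Cd34 over erythroblasts), 3.38 (Cd93 over erythroblasts), 3.09 (Cd27 over granulocytes) and -0.67 (Cd27 over T lymphocytes). TMM gave Adgrg1 3.28 over erythroblasts and 3.83 over granulocytes, and Cd93 3.98 and 2.64; DESeq2 size factors gave 3.17, 3.67, 3.87 and 2.48. The mean over wells gave 2.58 for Adgrg1 over B lymphocytes. In progenitor/stem cells Adgrg1 was 1194 CPM as the mean over wells. Scran gave Adgrg1 882, Cd34 393, Cd27 198 and Cd93 344 CPM, a total without Gm42418 and 4 globin genes gave 1277, 612, 296 and 557, and TMM, chosen after seeing the data, gave 850, 407, 197 and 371. Without thinning, progenitor/stem shares were 100% (Adgrg1), 94.7% (Cd34), 91.6% (Cd93), 82.1% (Cd27) and 23.2% (Procr), and Cd27 in T lymphocytes 65.1%; at 1000 UMIs the first 4 were 68.4%, 40%, 33.7% and 23.2%. Wells with both Cd34 and Adgrg1, Cd34 and Cd93, and Cd27 and Cd93 numbered 90, 82 and 72 without thinning and 22, 17 and 6 at 1000 UMIs. With a minimum of 10 UMIs or none, 1 member (Slamf1) entered as 2-fold lower than in B and than in T lymphocytes in place of 0. Its 9 UMIs stood against 4 and 8, at log2 -1.45 (-3.29 to 0.70, which holds 0) and -1.89 (-3.43 to -0.31). The share of all genes called under these filters is not given here, so the count is no result about the members. In the index splits, Slamf1 without plate row L, which holds 5 of its 9 UMIs, gave log2 1.53 by FSC-A in place of -1.05 and 1.65 by c-Kit in place of -0.98; Adgrg1 in the top over the bottom 14 T lymphocyte wells by CD3 gave 1.81. Splits added after seeing the data gave, in UMIs per well, -0.12 (Adgrg1), 0.53 (Cd27), 0.75 (Cd34) and 1.11 (Cd93) by CD44 and 0.20 (Adgrg1) by FSC-A, and Adgrg1 by CD44 gave -0.22 in deeper and -0.85 in shallower wells. Of the 3 nearest genes, a pseudocount of 100 kept 0 for Cd27 and 1 for each other member, a pseudocount of 1 kept 1 for Cd27 and 0 for Slamf1, and a minimum of 20 UMIs over all wells kept 0 for Procr and for Slamf1. Causes were not tested. Pairs with a sum of 0 had no ratio to vary. No paired analysis was possible because replicate numbers only follow accession order and no test was made. Depth limits Slamf1 and Procr most: 3 UMIs are 22.1 CPM in B lymphocytes and 3.59 CPM in progenitor/stem cells. All values rest on 1 mouse.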
